A study of Mus musculus with 115 samples.

Results

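The 9 genes described here are 6 E2F transcription factors (E2f1, E2f2, E2f3, E2f4, E2f7 and E2f8) and the 3 genes of the retinoblastoma family (Rb1, Rbl1 and Rbl2), out of 45699 genes in the table. They were chosen by name, and their TPM (a transcript level per length, scaled to a fixed total within each library) was followed over all libraries and against Mki67, the gene of the proliferation marker Ki-67. RNA was sequenced from prostate tissue of 1 group of mice, F2 animals of a cross of TRAMP with WSB/EiJ that were all Transgene positive. According to the paper, small prostates had RNA taken from the ventral prostate, and which libraries these are was not used here. The paper took organ weight as tumor burden without a pathological check for tumor. TRAMP mice carry the SV40 large T antigen, driven by the minimal probasin promoter in prostate epithelium, and the other parent strain, WSB/EiJ, was derived from wild mice. There was no transgene-negative group, so no level is set against a prostate without T antigen, and T antigen itself was not analysed here. Each library is labelled with its own mouse, 79 and 36 in the parts described below, and genotype, age and tumor burden of single mice were not used.

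E2F factors are the transcription factors that switch on the genes for DNA synthesis at the entry into S phase. In resting cells the pocket proteins RB (from Rb1), p107 (from Rbl1) and p130 (from Rbl2) bind E2F factors and hold these genes down, until cyclin-dependent kinases phosphorylate the pocket proteins and set E2F free. The large T antigen binds all pocket proteins and so bypasses this step. E2F1, E2F2 and E2F3 act mostly as activators. E2F4 acts mostly as a repressor together with p130 and p107, and E2F7 and E2F8 are atypical repressors that bind DNA without a DP partner and limit E2F target genes late in S phase. Several of these genes, E2f1, E2f7, E2f8 and Rbl1 among them, are known E2F targets themselves.

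Promoter sequence is shown because the members differ in letters known from E2F-regulated and cell cycle genes. RefSeq (GRCm38.p6) promoter windows, from 250 bases before to 50 bases after a start, were found for 7 members (9 windows) and searched on both strands. An E2F site (TTTCCCGC, TTTGGCGC, TTTCGCGC or TTTGCCGC) lay in windows of E2f2, E2f3, E2f7 and Rbl1, and in 2.26% of all 32851 windows. A CHR, the element bound by the MuvB complex (TTTGAA or TTCGAA), lay in windows of E2f2, E2f3, E2f8 and Rbl2, and in 19.2% of all windows. The window of E2f1 held neither of these motifs as spelled. In the 70-base stretches of 4 members below, written 5′ to 3′ on the strand of the gene, capitals mark the motif. They mark an E2F site in E2f7 and Rbl1, a CHR in E2f8 (TTCAAA is TTTGAA on the other strand), and a CHR followed by an E2F site in E2f3 (GCGGGAAA is TTTCCCGC on the other strand). No printed motif overlaps another. A match is a description of letters and not a measurement of binding.
E2f3, chr13:29986064-29986133, minus strand: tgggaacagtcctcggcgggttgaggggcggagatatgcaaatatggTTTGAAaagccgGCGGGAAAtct
E2f7, chr10:110745210-110745279, plus strand: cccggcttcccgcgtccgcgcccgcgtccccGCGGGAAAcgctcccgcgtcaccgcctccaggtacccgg
E2f8, chr7:48881597-48881666, minus strand: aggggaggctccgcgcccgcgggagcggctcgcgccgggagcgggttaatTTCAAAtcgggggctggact
Rbl1, chr2:157204535-157204604, minus strand: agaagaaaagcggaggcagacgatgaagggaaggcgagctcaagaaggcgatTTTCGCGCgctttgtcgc

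In E2f3 the CHR begins 23 bases and the E2F site 11 bases before the start. The site begins 18 bases before the start in Rbl1 and 198 bases before it in E2f7, and the CHR of E2f8 begins 20 bases before it. By GENCODE M21 on GRCm38, E2f1 lies at chr2:154559407-154569892 on the minus strand and Rbl1 on the same chromosome and strand at chr2:157145893-157204534. E2f4 (chr8:105297663-105305370) and Rbl2 (chr8:91070057-91123844) share chromosome 8 on the plus strand. E2f2 lies at chr4:136172394-136196057 (plus strand), E2f3 at chr13:29906575-29986063 (minus strand), E2f7 at chr10:110745439-110787384 (plus strand), E2f8 at chr7:48866429-48881596 (minus strand) and Rb1 at chr14:73183673-73325822 (minus strand). Each value is for the whole gene. Exons of some members overlap a gene on the other strand, and reads of the 2 cannot be told apart here. These are Rb1 with Rcbtb2 (488 of 6015 exon bases) and Lpar6 (408 bases), Rbl2 with Aktip (693 of 7558 exon bases) and Gm45464 (892 bases), E2f8 with Gm2788 (610 of 5443 exon bases) and E2f7 with 1700020G17Rik (86 bases).

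The libraries did not form 1 cloud. The first principal component, which held 48.7% of the variance of 14623 genes, separated them into a larger part of 79 libraries and a smaller part of 36, and left the same parts when the members, Mki67 and the listed pathway genes were taken out. The parts were formed from the expression values themselves, so they were not tested against each other, and their ranges are a description. The 9 neuroendocrine markers summed to between 1.22 and 70.4 TPM in the larger part and to between 8 and 891 TPM in the smaller part. The 7 prostate luminal markers summed to between 274 and 18075 TPM in the larger part and to between 12.1 and 2722 TPM in the smaller part. Basal markers (4 genes) had a median sum of 35.8 TPM in the larger part and of 0.43 TPM in the smaller part, where each of the 4 was listed at 0 in some libraries. The label prostate thus matched its luminal markers in the larger part, and less so in the smaller part. Seminal vesicle markers (5 genes) were not absent from the larger part. They summed to between 1.85 and 168779 TPM there (median 1144), and to a median of 5.365 TPM in the smaller part. Some libraries of the larger part thus held many seminal vesicle transcripts beside the luminal ones. No fit below held the seminal vesicle markers as a covariate. In 4 libraries of the smaller part the neuroendocrine sum was only 8 to 33.1 TPM, against 216 to 891 TPM in the other 32, while the luminal keratin genes Krt8 (369 to 631 TPM) and Krt18 (355 to 749 TPM) were above all of the other 32. These 4 were set apart by the widest gap in the neuroendocrine sum after the data were seen, and results of the smaller part are given with and without them. In bulk tissue, fewer cells of a type and less RNA per cell cannot be told apart, and this holds for every level below. TPM also moves with the few genes that fill a library, since 20 genes took 48.9% to 81.8% of it, so results are given as deposited and after median-of-ratios rescaling, which sets the typical gene equal between libraries.

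All 9 members were above 0 in every library. Over the 79 and 36 libraries together the pocket protein genes stood highest, and in the E2F group E2f4 stood above the others. Ordered by median, Rbl2 (12.7 TPM) was followed by Rb1 (6.26 TPM), Rbl1 (6.06 TPM), E2f4 (4.91 TPM), E2f3 (2.5 TPM), E2f1 (2.14 TPM), E2f2 (1.64 TPM), E2f8 (1.14 TPM) and E2f7 (0.82 TPM). Of the 8 neighbours in this order, 7 differed within libraries (sign-flip permutation test, two-sided, adjusted over 8), and E2f3 and E2f1 did not (adjusted p = 0.39). E2f1 and E2f2 differed narrowly (adjusted p = 0.034). With 0.1 in place of 1 added to TPM before the log they did not (same test, adjusted p = 0.369). By a sign test on counts of libraries, 5 of the 8 differed. These tests took both parts together, so they do not give the order within a part. The order was not the same in the 2 parts, and Rbl2 was above Rb1 in 79 of 79 libraries of the larger part and in 1 of 36 of the smaller part. E2f3 was above E2f1 in 54 of 79 and in 0 of 36, so opposite orders were pooled for the neighbours that did not differ. Rbl1 was above E2f4 in 31 of 79 and in 36 of 36, and E2f2 above E2f8 in 65 of 79 and in 5 of 36.

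**Figure D1:**
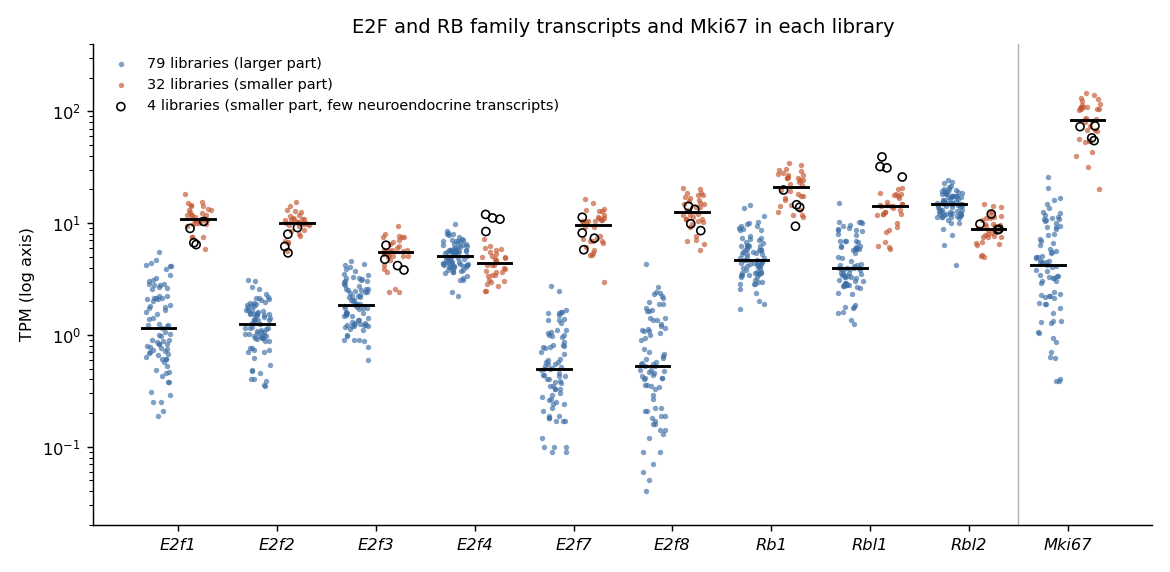
TPM of the 9 members and Mki67 in each library (log axis), with the larger part of 79 and the smaller part of 36 libraries side by side, a bar at each median, and open circles for the 4 libraries with few neuroendocrine transcripts. E2f1, E2f2, E2f7 and E2f8 do not overlap between the parts, E2f4 overlaps almost fully, and the median of Rbl2 is 14.8 TPM in the larger and 8.94 TPM in the smaller part.

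Among the activators, E2f1 was between 0.19 and 5.56 TPM (median 1.15) in the larger part and between 5.85 and 18.3 TPM (median 10.9) in the smaller part. E2f2 was between 0.35 and 3.11 TPM (median 1.26) and between 5.42 and 15.4 TPM (median 10). Neither gene overlapped between the parts. E2f3, the third activator, ran from 0.60 to 4.57 TPM (median 1.85) in the larger part and from 2.41 to 9.36 TPM (median 5.52) in the smaller part, where 28 of 36 libraries were above all 79 others. The atypical repressor E2f7 lay between 0.09 and 2.73 TPM (median 0.50) in the larger part and between 2.98 and 16.5 TPM (median 9.66) in the smaller part. E2f8, the other atypical repressor, lay between 0.04 and 4.30 TPM (median 0.53) and between 5.74 and 20.7 TPM (median 12.7). By median they were the lowest members of the larger part, E2f8 was the highest E2F gene of the smaller part, and neither overlapped. E2f4, the repressor that works with the pocket proteins, overlapped almost fully, with 2.21 to 9.85 TPM (median 5.06) and 2.49 to 11.96 TPM (median 4.39).

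Of the pocket protein genes, Rb1 was between 1.70 and 14.6 TPM (median 4.70) in the larger part and between 9.38 and 34.5 TPM (median 20.9) in the smaller part, where 28 of 36 libraries were above all 79. Rbl1, whose product p107 is known from cycling cells, was between 1.25 and 14.98 TPM (median 3.93) and between 5.81 and 39.1 TPM (median 14.3). Rbl2, whose product p130 is known from resting cells, was between 4.21 and 24.4 TPM (median 14.8) in the larger part and between 4.98 and 14.7 TPM (median 8.94) in the smaller part. Mki67 was between 0.39 and 25.7 TPM (median 4.23) and between 20 and 144 TPM (median 83.5), and all but 1 library of the smaller part lay above the larger part. The 4 members without overlap stand beside 335 of 23251 tested genes, 1.44%, that lay higher in every library of the smaller part, and beside 1 gene that lay lower. The parts come from the same values, so this count is no test. After median-of-ratios rescaling the same 4 did not overlap (1.04% of genes lay wholly higher), and then 20 of the 36 libraries for E2f4 and 34 for Rbl2 lay below all of the larger part. With TPM rescaled without the 20 genes of largest share, E2f2 and E2f8 did not overlap, and E2f1 and E2f7 did in 1 library of the smaller part each.

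The other genes of the pathway differed in how far the parts overlapped. None of the 4 other E2F and DP genes (E2f5, E2f6, Tfdp1, Tfdp2) and none of the 8 cyclin and CDK genes upstream of RB was free of overlap. Among the 7 genes of the MuvB complex and its activators, Lin9, Mybl2 and Foxm1 lay wholly higher in the smaller part, and among 7 CDK inhibitor genes Cdkn1b and Cdkn2d did. Of 22 E2F targets of the G1/S transition, 5 did (Cdc45, Rrm2, Brca1 and Ezh2 among them), and of 15 G2/M genes, 12 did. All of these were higher in the smaller part, beside 335 of 23251 tested genes (1.44%) that lay wholly higher. The parts come from the same values, so these counts are no test either, and they were taken on TPM as deposited.

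The make-up of each family does not depend on how a library is scaled. Rbl2 took the largest share of the summed pocket protein TPM in 79 of 79 libraries of the larger part (38.8% to 76.5%, median 61.96%) and in 0 of 36 of the smaller part (13.1% to 35.5%, median 19.98%). The share of Rb1 had a median of 20.7% in the larger part and of 49.5% in the smaller part, and that of Rbl1 a median of 16.8% and 31.4%. The pocket protein genes summed to between 10.1 and 48.2 TPM (median 23.6) in the larger part and to between 25.96 and 70.9 TPM (median 47.4) in the smaller part. Among the 6 E2F genes, E2f4 took the largest share in 79 of 79 libraries of the larger part (29.3% to 68.9%, median 49.1%) and in 1 of 36 of the smaller part (5.05% to 22.8%, median 8.21%). There E2f8 was largest in 20 libraries, E2f1 in 11, E2f2 in 2 and E2f7 in 2. The E2F genes summed to between 4.95 and 27.8 TPM (median 10.7) and to between 29.2 and 72.2 TPM (median 52.4).

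**Figure D2:**
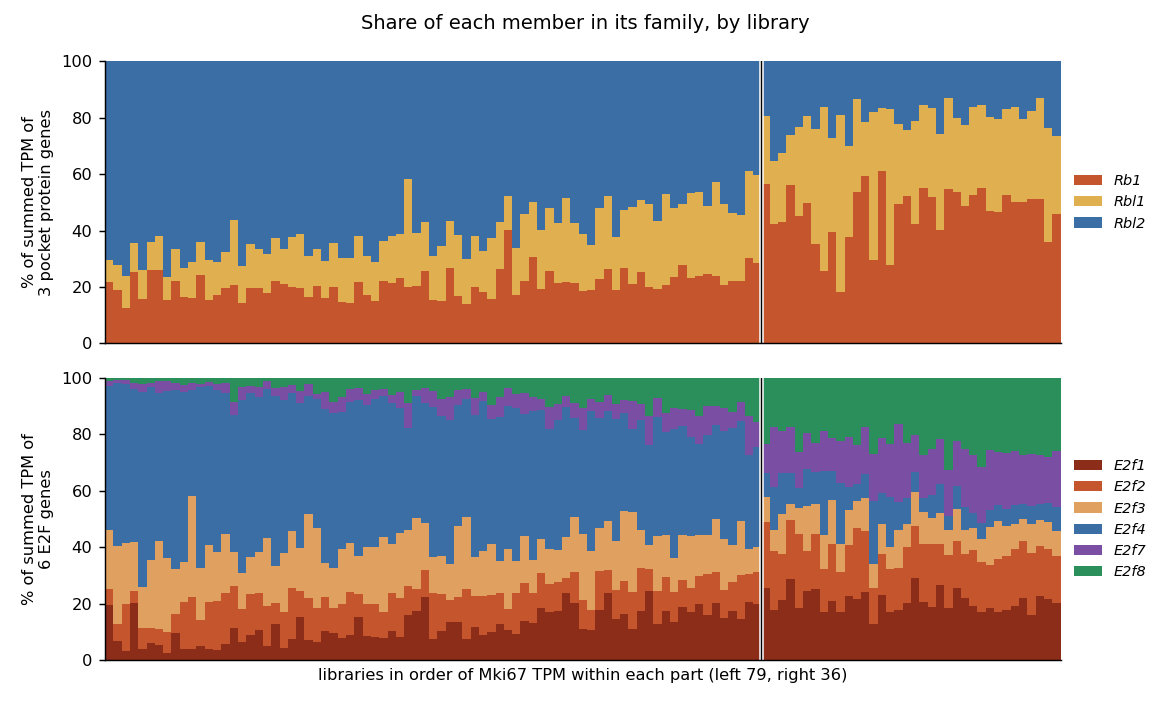
Share of each member in the summed TPM of the 3 pocket protein genes and of the 6 E2F genes (percent, stacked bars, 1 bar per library, ordered by Mki67 within each part). Rbl2 and E2f4 fill the largest share in all 79 libraries of the larger part, and Rb1 or Rbl1 and mostly E2f8 or E2f1 do so in the 36 of the smaller part.

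The 4 libraries with few neuroendocrine transcripts had their own make-up. Rbl1 was 31.2, 25.9, 32.1 and 39.1 TPM in them, above each library of the larger part and of the rest of the smaller part, and the other 32 of the smaller part had 5.81 to 20.7 TPM (median 13.9). E2f4 was 11.96, 11.1, 8.41 and 10.8 TPM, above all of the other 32 (2.49 to 7.19 TPM, median 4.22). Rb1 was 13.9, 14.6, 9.38 and 19.8 TPM and overlapped the other 32 (11.3 to 34.5 TPM, median 22.8). Rbl1 was therefore the largest pocket protein share in 4 of these 4 (52.5% to 62.6%), while Rb1 was the largest in 30 of the other 32, over which its share ran from 35.3% to 61.1%. E2f4 took 17.9% to 22.8% of the E2F sum in the 4 and 5.05% to 15.2% in the 32. In the 4, Mki67 was 54.7 to 74.1 TPM, within the range of the other 32, the stroma markers summed to 522 to 1829 TPM (2.99 to 858 TPM in the other 32) and the immune markers to 339 to 981 TPM (22.5 to 707 TPM in the other 32). Their part in these levels was not tested. The 4 were chosen by their neuroendocrine sum, so no test is given.

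Against Mki67, all 9 members rose in the larger part. The slope is the rise of log2(TPM + 1) of a member per 1 log2 unit of Mki67, fitted across all genes with limma and adjusted over 23164 genes. It was 0.52 (SE 0.035, adjusted p = 1.03e-22) for E2f1, 0.26 (SE 0.029, adjusted p = 7.25e-13) for E2f2 and 0.20 (SE 0.041, adjusted p = 1.98e-05) for E2f3. E2f4 gave 0.21 (SE 0.029, adjusted p = 1.79e-09), and the atypical E2f7 and E2f8 gave 0.36 (SE 0.018, adjusted p = 5.55e-30) and 0.49 (SE 0.020, adjusted p = 7.47e-36). Of the pocket protein genes, Rbl1 had, on this scale, the steepest slope of the 9, at 0.56 (SE 0.025, adjusted p = 2.65e-33). Rb1 gave 0.33 (SE 0.045, adjusted p = 1.38e-09) and Rbl2 gave 0.10 (SE 0.039, adjusted p = 0.032). E2f7 and E2f8 had medians of 0.50 and 0.53 TPM in this part, below the 1 added before the log. That addition flattens slopes at such low levels, so the slopes do not rank the members by fold change. The same fit called 55.9% of all genes higher and 2.53% lower with Mki67, and the median slope of all genes was 0.10 (9 of 9 members against that background). The immune markers rose with Mki67 too, 8 of 8, and the immune index (mean z-score of the list) had r = 0.644 and rho = 0.6498 with Mki67 (n = 79, permutation p = 1e-05). With stroma, immune and luminal indices in the fit, E2f3, Rb1 and Rbl2 were no longer called (slopes 0.11 for E2f3 and -0.08 for Rbl2) and the other 6 were, beside 13.6% of all genes called higher and 6.01% lower.

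Rescaling separated the members more sharply. After median-of-ratios rescaling, 16.6% of genes were called higher and 20.8% lower, and the median slope was -0.01. The calls that remained were E2f1 (0.45, SE 0.041, adjusted p = 6.10e-16), E2f2 (0.18, SE 0.034, adjusted p = 1.68e-05), E2f7 (0.34, SE 0.020, adjusted p = 2.78e-25), E2f8 (0.48, SE 0.022, adjusted p = 5.98e-33), Rbl1 (0.45, SE 0.024, adjusted p = 5.19e-29) and Rb1 (0.12, SE 0.034, adjusted p = 0.0027). E2f3 (0.05, adjusted p = 0.38) and E2f4 (0.02, adjusted p = 0.42) were not called, and Rbl2 was called in the opposite direction, lower by limma (-0.14, SE 0.028, adjusted p = 6.81e-05). With TPM rescaled without the 20 genes of largest share, 7 members were called higher, all but E2f3 and Rbl2, beside 24.6% of genes higher and 9.5% lower. Relative to the typical gene (median-of-ratios), Rbl2 fell as Mki67 rose, while on the TPM scale it rose slightly.

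**Figure D3:**
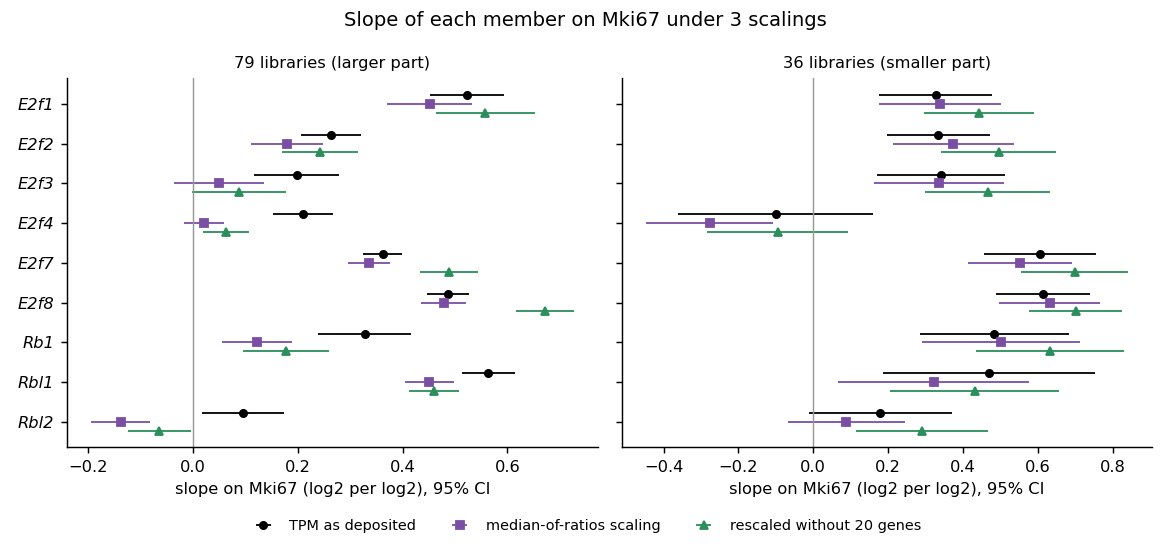
Slope of each member on Mki67 (change of log2 level per log2 unit of Mki67) with 95% confidence intervals from limma, in the larger and the smaller part, for TPM as deposited and for 2 rescalings. E2f1, E2f2, E2f7, E2f8, Rb1 and Rbl1 lie above 0 in every panel, and Rbl2 and E2f4, and E2f3 in the larger part, cross 0 or change side with the scaling.

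As a correlation, E2f8 followed Mki67 most closely in the larger part, and E2f8, Rbl1 and E2f7 stayed on top after rescaling (18 relations tested, 9 members in 2 parts). E2f8 had r = 0.940 and rho = 0.957, Rbl1 had r = 0.929 and rho = 0.921, and E2f7 had r = 0.914 and rho = 0.931. E2f1 had r = 0.860 and rho = 0.874 and E2f2 had r = 0.723 and rho = 0.677. For these 5, and for Rb1 (r = 0.639, rho = 0.649) and E2f4 (r = 0.637, rho = 0.654), permutation p was 1e-05 for both measures, the smallest it can be, and adjusted p was 1.8e-05 (n = 79). E2f3 (r = 0.482, rho = 0.491, permutation p = 2e-05 and 1e-05, adjusted p = 3e-05 and 1.8e-05) and Rbl2 (r = 0.264, rho = 0.249, permutation p = 0.0187 and 0.0276, adjusted p = 0.021 and 0.031) were the loosest. Once the 2 libraries with Mki67 farthest from its median were left out, r was 0.935 for E2f8, 0.920 for Rbl1, 0.908 for E2f7, 0.841 for E2f1, 0.698 for E2f2, 0.604 for E2f4, 0.592 for Rb1, 0.5002 for E2f3 and 0.260 for Rbl2. After median-of-ratios rescaling r was 0.929 for E2f8, 0.908 for Rbl1, 0.884 for E2f7, 0.782 for E2f1, 0.511 for E2f2, 0.379 for Rb1 and -0.481 for Rbl2. As a description, 0.759% of 14621 genes had a higher r with Mki67 than E2f8, 0.999% had a higher r than Rbl1, 1.35% than E2f7 and 2.41% than E2f1. For Rbl2 it was 70.002% of genes, and 97.3% after rescaling.

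**Figure D4:**
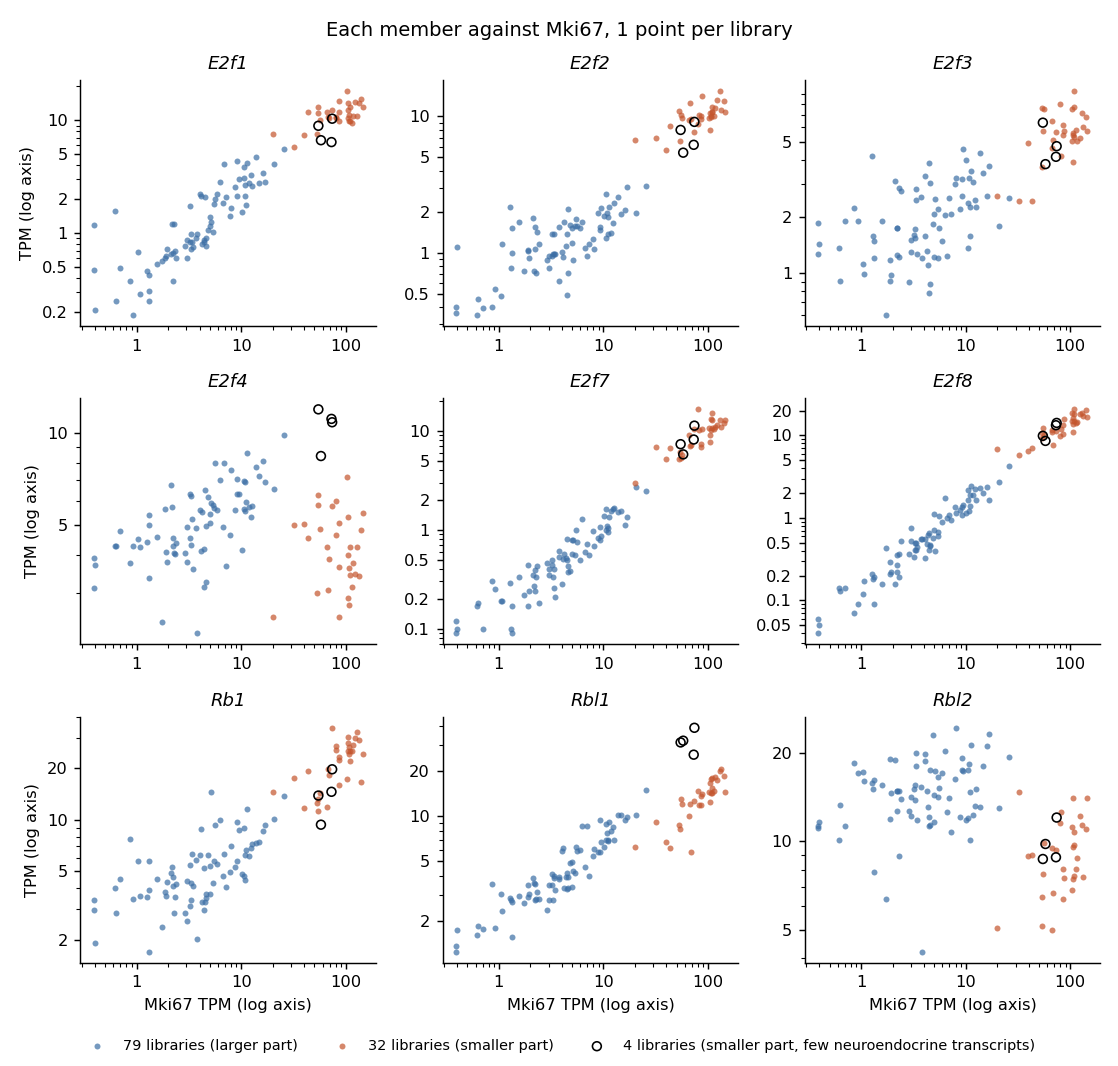
TPM of each member against TPM of Mki67 (both axes log), 1 point per library, in separate colors for the 79 and the 36 libraries, with open circles for the 4 with few neuroendocrine transcripts. E2f8, E2f7 and Rbl1 form narrow bands in the larger part, Rbl2 is flat, and the 4 open circles of Rbl1 and E2f4 lie above the other libraries of the smaller part.

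Among the 36 libraries of the smaller part, 7 of 9 members rose with Mki67 and E2f4 and Rbl2 did not, against 24.5% of 23166 genes called higher and 17.8% lower. By limma the atypical E2f8 and E2f7 were steepest, with slopes of 0.61 (SE 0.063, adjusted p = 3.89e-09) and 0.61 (SE 0.074, adjusted p = 1.17e-07). The activators gave 0.33 (SE 0.074, adjusted p = 6.91e-04) for E2f1, 0.33 (SE 0.068, adjusted p = 2.05e-04) for E2f2 and 0.34 (SE 0.084, adjusted p = 0.0015) for E2f3. Rb1 gave 0.48 (SE 0.099, adjusted p = 2.13e-04), and Rbl1 gave 0.47 (SE 0.14, adjusted p = 0.0072). E2f4 had a slope of -0.10 (SE 0.13, adjusted p = 0.54) and Rbl2 of 0.18 (SE 0.094, adjusted p = 0.12). Without the 4 libraries the same 7 were called, against 25.1% of genes higher and 18.4% lower, the error of Rbl1 shrank (slope 0.59, SE 0.072, adjusted p = 1.55e-07), and E2f4 was at -0.01. With median-of-ratios rescaling E2f4 was called lower over the 36 libraries (-0.28, SE 0.084, adjusted p = 0.0057), beside 30.7% of all genes called lower and 25.3% higher. With Top2a, another proliferation gene, in place of Mki67, 4 of the 9 were called, beside 8.62% of all genes called higher and 2.51% lower. E2f2, E2f7 and Rb1 lost their call there, and E2f1, E2f3, E2f8 and Rbl1 kept it. Rbl2 was called higher when TPM was rescaled without the 20 genes of largest share (0.29, SE 0.087, limma adjusted p = 0.0052, beside 36.7% of genes higher and 20.8% lower) and with stroma, immune and luminal indices in the fit (0.37, SE 0.12, limma adjusted p = 0.025, beside 16.6% of genes higher and 3.07% lower), so 8 of 9 were called in each. Of the stroma and immune markers, 8 of 8 each fell with Mki67 in these 36 libraries.

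The correlations gave the same order at the top. Over the 36 libraries, E2f8 had r = 0.867 and rho = 0.856 and E2f7 had r = 0.818 and rho = 0.819 (permutation p = 1e-05 each, adjusted p = 1.8e-05). E2f2 (r = 0.654, rho = 0.681), Rb1 (r = 0.642, rho = 0.687) and E2f1 (r = 0.608, rho = 0.498) came next, with permutation p between 1e-05 and 0.0021 and adjusted p up to 0.0027. E2f3 (r = 0.573, rho = 0.404, permutation p = 4.1e-04 and 0.015, adjusted p = 5.3e-04 and 0.018) fell to r = 0.352 once the 2 libraries with Mki67 farthest from its median were left out. For E2f8, E2f7, E2f2, Rb1 and E2f1 that value was 0.850, 0.778, 0.614, 0.706 and 0.494. Rbl1 had r = 0.493 and rho = 0.583 over 36 libraries (permutation p = 0.0022 and 2.2e-04, adjusted p = 0.0027 and 3.0e-04), and 0.378 without those 2. Without the 4 libraries Rbl1 had r = 0.837 and rho = 0.864 (n = 32, permutation p = 1e-05, adjusted p = 3e-05) and held r = 0.839 without the 2 farthest. Rbl1 therefore tracked Mki67 closely in 32 of these libraries and stood off that line in 4. Rbl2 (r = 0.310, rho = 0.269) and E2f4 (r = -0.1301, rho = -0.245) were not called over 36 libraries (adjusted p = 0.071 and 0.12 for Rbl2, 0.45 and 0.15 for E2f4), nor over 32 (r = 0.332 and -0.015). Whether a slope or r differs between the 2 parts was not tested.

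No scaling of a library can move a share within a family, an alternative measure chosen after the data were seen. Mki67 was taken as deposited TPM here, which scaling does move, and shares were not set against rescaled Mki67. In the larger part the share of E2f8 in the E2F sum (r = 0.883), of E2f7 (r = 0.784) and of E2f1 (r = 0.664) rose with Mki67, that of E2f2 was not called (r = 0.0096), and those of E2f3 (r = -0.350) and E2f4 (r = -0.794) fell. Among pocket proteins the shares of Rbl1 (r = 0.820) and Rb1 (r = 0.377) rose and that of Rbl2 fell (r = -0.793). Of these, the largest permutation p was 0.0016 for r and 0.0056 for rho (E2f3), and adjusted over 18 shares it was 0.0033 and 0.0091. Over the 36 libraries the shares of E2f8 (r = 0.588, rho = 0.679) and E2f7 (r = 0.465, rho = 0.540) rose and that of E2f4 fell (r = -0.479, rho = -0.677), with adjusted permutation p up to 0.0072. Rbl2 was called by r (-0.391, adjusted permutation p = 0.028) and not by rho (-0.323, adjusted permutation p = 0.082), and the others were not called. Without the 4 libraries E2f4 had r = -0.657, and Rbl1 was called by r (0.437, adjusted permutation p = 0.023) and not by rho (0.345, adjusted permutation p = 0.084). Shares of one sum are tied to each other, so these are not separate results.

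On the TPM scale most members moved together over mice of the larger part. Of 36 pairs, 34 had a positive r that passed the permutation test (adjusted over 36) and 0 a negative one, with a median r of 0.634, and by rho the counts were 34 and 0. Pairs of other genes were not counted, so no share over all genes stands beside these counts. On this scale 55.9% of all genes were called higher with Mki67. The atypical pair E2f7 and E2f8 was closest (r = 0.923), then E2f8 with Rbl1 (r = 0.905), E2f1 with Rbl1 (r = 0.891) and E2f7 with Rbl1 (r = 0.887). After median-of-ratios rescaling the median r was 0.152, and 15 pairs were positive and 6 negative. Of those 6, 5 set Rbl2 against E2f1 (r = -0.628), E2f7 (r = -0.564), E2f8 (r = -0.528), Rbl1 (r = -0.454) and Rb1 (r = -0.272). E2f4 with Rb1 was the other negative pair (r = -0.302), whereas E2f8 with Rbl1 (r = 0.891) and E2f7 with E2f8 (r = 0.889) held. After Mki67 was taken out, 21 pairs were called, all positive, with E2f4 and Rbl2, repressor and partner, highest (r = 0.682). That pair had r = 0.675 before Mki67 was taken out and 0.049 after median-of-ratios rescaling, where it was not called (permutation p = 0.667). Over the 36 libraries 19 pairs were positive and 1 negative (E2f2 with E2f4, r = -0.431), by rho 15 and 1. After median-of-ratios rescaling 16 were positive and 4 negative, and the 4 set E2f4 against E2f2 (r = -0.773), Rb1 (r = -0.728), E2f1 (r = -0.496) and E2f8 (r = -0.472). On the TPM scale, after Mki67 was taken out, 5 were positive and 1 negative. Without the 4 libraries 20 pairs were positive and 0 negative. E2f8 with Rbl1 then had r = 0.868, against 0.555 over 36 libraries, and Rb1 with Rbl1 had r = 0.622, against 0.1702. E2f4 with Rbl1 was called over 36 libraries (r = 0.519) and not over 32.

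**Figure D5:**
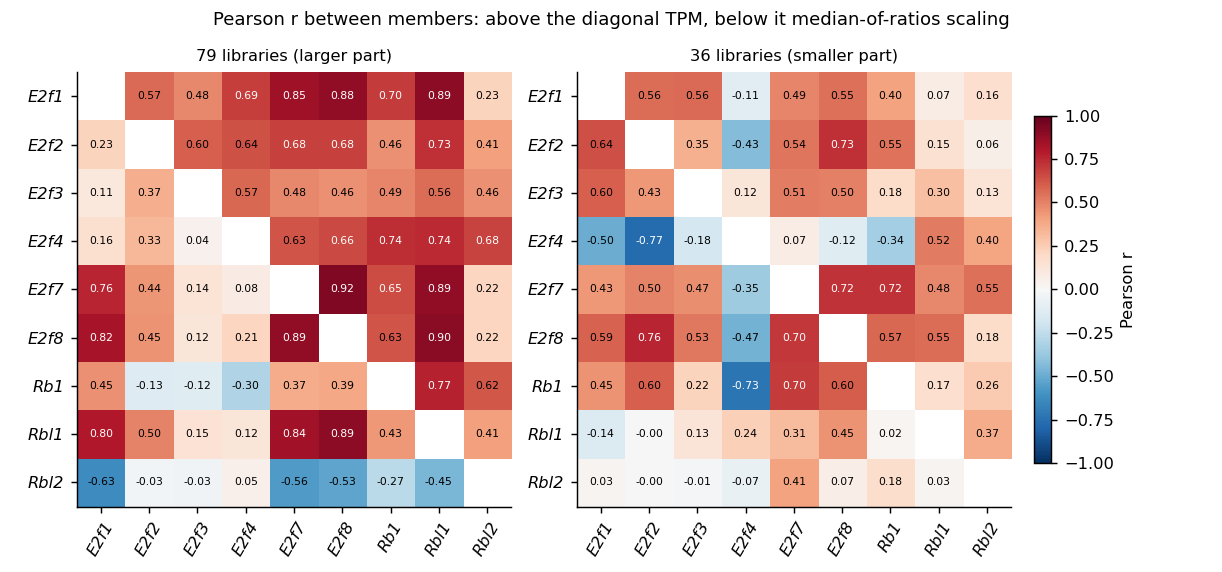
Pearson's r between members over libraries on the log2(TPM + 1) scale, in the larger and the smaller part, with TPM as deposited above the diagonal and after median-of-ratios rescaling below it. E2f1, E2f7, E2f8 and Rbl1 form a block of high r in the larger part on both sides of the diagonal, and Rbl2 turns negative against them below it.

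Markers of other cell types moved with the members in both parts. In the larger part the immune index rose with 9 of 9 members (r from 0.317 for Rbl2 to 0.747 for Rb1) and the stroma index with 8 of 9, and 27 of 63 member and index pairs were called positive and 1 negative (37 and 1 by rho). After median-of-ratios rescaling 7 were positive and 18 negative. Other genes were not set against the indices, so these counts do not show a trait particular to the members. In the smaller part 6 pairs were positive and 22 negative (5 and 16 by rho). The luminal index was lower where E2f8 (r = -0.614), E2f7 (r = -0.497), E2f2 (r = -0.470), Rb1 (r = -0.431) and E2f1 (r = -0.411) were higher, and Mki67 itself had r = -0.678 with that index (rho = -0.629). E2f4 had the opposite sign for 2 lists, with r = 0.550 for stroma, 0.512 for immune markers, and it had r = -0.670 with neuroendocrine markers. Over the other 32 libraries none of these was called, with r = 0.400 for stroma (adjusted permutation p = 0.065), 0.249 for immune (adjusted permutation p = 0.24) and 0.247 for neuroendocrine markers (rho over 36 libraries was -0.140 for the last). Likewise Rbl1 had r = -0.627 with neuroendocrine markers over 36 libraries and 0.00020 over 32. Over the 32, Rbl1 fell with the immune (r = -0.608), stroma (r = -0.538) and luminal (r = -0.429) indices, and 1 of 63 pairs was positive and 18 negative. The part of these cell types in the levels of the members was tested only as covariates of the fits above.

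Most of the genes around the members in the pathway rose with Mki67 in the larger part. Of 63 listed genes, 60 were called higher and 0 lower (limma, adjusted over all genes), beside 55.9% and 2.53% of all genes. The 22 G1/S targets all rose (median slope 0.75), with Uhrf1, a maintenance factor of DNA methylation, at 1.06 and the helicase subunit gene Mcm2 at 1.01. The 15 G2/M genes all rose (median 0.83), and the 7 CDK inhibitor genes too (median 0.44), with Cdkn2a, which encodes p16 and p19ARF, at 1.33 (SE 0.061). All 7 MuvB genes rose (median 0.35), with Foxm1, the activator of mitotic genes, at 0.56, and so did the 4 E2F and DP genes (median 0.21), with Tfdp1, the DP partner of E2F factors, at 0.58 and E2f5 at 0.12. Of the 8 cyclin and CDK genes upstream of RB 5 rose, with Ccne2, the cyclin E2 gene, at 0.81, and Ccnd1, Ccnd2 and Cdk6 were not called (slopes of 0.09, -0.11 and -0.05). After median-of-ratios rescaling 53 rose and 3 fell, beside 16.6% and 20.8% of all genes, and 1 of the 4 E2F and DP genes was still called.

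Fewer were called among the 36 libraries, where 29 of the 63 rose and 3 fell, beside 24.5% and 17.8% of all genes. Without the 4 libraries 34 rose and 3 fell, beside 25.1% and 18.4% of all genes. Over the 36 libraries, 11 of 22 G1/S targets (median slope 0.27) and 9 of 15 G2/M genes (median slope 0.27) rose. Ezh2, a histone methyltransferase gene and E2F target, had a slope of 0.76, Brca1 of 0.51 and Cenpe, a kinetochore motor gene, of 0.63, whereas Mcm2 (-0.13), Mcm4 (0.16), Pcna (0.16) and Cdk1 (0.06) were not called. Foxm1 rose at 0.65, and Tfdp2 (0.48), Tfdp1 (0.25) and E2f6 (0.19) rose while E2f5, a relative of E2f4, fell (-0.28, SE 0.10, adjusted p = 0.025). The fall of E2f5 was no longer called with stroma, immune and luminal indices in the fit, with the neuroendocrine index in it, or with Top2a in place of Mki67. None of the 8 cyclin and CDK genes rose, and the cyclin D genes Ccnd1 (-0.75, SE 0.23, adjusted p = 0.0083) and Ccnd3 (-0.41, SE 0.14, adjusted p = 0.020) fell. Neither fall was called with stroma, immune and luminal indices in the fit or with Top2a in place of Mki67. Of the 8 genes, 2 were called higher with Top2a, 1 with the neuroendocrine index in the fit and 1 without the 4 libraries. Of the CDK inhibitor genes 2 of 7 rose, Cdkn2c (0.42) and Cdkn2b (0.39), and Cdkn2a was not called (-0.34, adjusted p = 0.070). The counts of G1/S and G2/M genes depended on the setting. With Top2a in place of Mki67, 19 of 22 G1/S targets (median slope 0.67) and 13 of 14 other G2/M genes (median slope 0.81) rose. Of 62 listed genes, 41 then rose and 0 fell, beside 8.62% and 2.51% of all genes. With stroma, immune and luminal indices in the fit on Mki67, 12 of 22 and 4 of 15 rose, beside 16.6% of all genes.

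Of 14622 genes that averaged 1 TPM or more, those most like each member over the 79 libraries differed from member to member (the 3 of highest r, or 1 for E2f3, given as a description). For E2f8 they were Ticrr (r = 0.970), Ska3 (r = 0.963) and Bard1 (r = 0.962), and for E2f7 they were Blm (r = 0.939), Bard1 (r = 0.935) and Ticrr (r = 0.933), so 2 of the 3 were shared. For Rbl1 they were Mcm4 (r = 0.975), Tmpo (r = 0.974) and Dck (r = 0.974), and for E2f1 Cchcr1 (r = 0.943), Ncaph (r = 0.942) and Chaf1a (r = 0.938). These r stayed at 0.894 or above after rescaling in the 79 libraries. Among the other members, E2f4 had Cables2 (r = 0.939), Zfp746 (r = 0.939) and Zfp646 (r = 0.938), Rbl2 had Kdm4c (r = 0.915), Dhx57 (r = 0.908) and Scyl3 (r = 0.905), and Rb1 had Cep350 (r = 0.929), Stag1 (r = 0.928) and Crybg3 (r = 0.928). After rescaling Cables2 had r = 0.565 with E2f4, Kdm4c had r = 0.815 with Rbl2 and Cep350 had r = 0.709 with Rb1. E2f2 was closest to Nudt5 (r = 0.850), Lrrc75a (r = 0.848) and Jpt2 (r = 0.846), and E2f3 to Azin1 (r = 0.687). In the 36 libraries E2f2 and Nudt5 had r = -0.427, so that likeness was not shared by the smaller part. There E2f4 and Zfp746 had r = 0.912. Of the 3 genes given for Rbl1, Mcm4 had r = 0.654 with it in the 36 libraries, Tmpo 0.280 and Dck 0.221.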

How the data were processed

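Prostate RNA of F2 mice of 1 group was ribosomal RNA depleted and sequenced. The authors trimmed the reads, mapped them to an allele-specific transcriptome and deposited 1 table of TPM for 45699 genes. The submitters' processing notes name CASAVA 1.8.2, Bowtie2 2.2.5, RSEM 1.2.20 and GRCm38. TPM keeps no depth, so counting error is unknown and no count model was used. The paper's text gives fewer libraries than the table and does not name them, so all were used. The labels name no batch, and no library kit setting that keeps strand was found in the sources used here.

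Gene names came from GENCODE M21 (98.8% of genes matched). Parts were called by a mixture of 2 normal distributions on the first principal component (BIC lower by over 10, Ashman D over 2, at least 6 libraries each). Genes that averaged 0.1 TPM or more (23251) were tested on log2(TPM + 1) with limma 3.58.1 in R 4.3.3, adjusted p under 0.05 by the Benjamini-Hochberg method. Correlations used 100000 permutations, two-sided. An index is the mean z-score of a marker list. The genes named are the members, Mki67, Top2a, listed pathway and marker genes, and for each member the 3 genes of highest r. A few genes under this rule are not reported here. The genes overlapping a member come from the annotation, and the 4 libraries were set apart after values were seen. Members and lists were chosen with earlier results of these data known. Alternatives were another pseudocount (0.1), 2 rescalings, other filters, ranks, Top2a, index covariates, residuals after Mki67, family shares and leaving out the 4 libraries. BLAST 2.17.0 was used to look for near-identical copies (95% identity over 100 bases), and besides opposite-strand overlaps only short stretches of E2f7 were found. Scripts were tested on simulated data and ran in Python 3.11.15 with scikit-learn 1.9.0, scipy 1.17.1, matplotlib 3.10.9, pandas 2.3.3 and numpy 2.4.6.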

Additional observations from a re-analysis of the deposited data

How the results depend on the processing

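No paired analysis was possible because there is only 1 group of libraries. Of the counts of calls, 66 alternative values stayed within 1.5 times the reported one and 6 did not, and of the values of single members 179 kept their direction and side of the threshold, 9 lost the call, 4 gained it and 6 reversed. In the larger part the slope of Rbl2 reversed to -0.14 with median-of-ratios scaling, -0.064 without the 20 genes of largest share and -0.076 with stroma, immune and luminal covariates. In the smaller part the uncalled slope of E2f4 turned to 0.36 with Top2a in place of Mki67, 0.16 with those covariates and 0.0052 with the neuroendocrine covariate. Member pairs called in the larger part went from 34 to 21 with median-of-ratios scaling and to 21 after Mki67 was taken out, and index pairs from 28 to 12 without the 20 genes. In the smaller part members called went from 7 to 4 with Top2a, member pairs from 20 to 6 after Mki67 was taken out, and index pairs from 28 to 7 by Spearman's rho without the 4 libraries. The share of calls that were higher in the larger part was 95.7% with TPM, 44.4% with median-of-ratios scaling and 72.1% without the 20 genes, and the median slope of all genes went from 0.10 to -0.01 and 0.01. In the smaller part the share went from 57.9% to 45.2% and 63.9%. The cause of these moves was not tested. The depth behind each value is unknown, and the parts were formed from the same expression values.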
